A study of Drosophila melanogaster with 6 samples.

Results

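The Niemann-Pick type C (Npc) family of Drosophila melanogaster was examined in whole larvae that expressed a HAT-defective or a wild-type form of the histone acetyltransferase dTip60. The family was taken as 10 genes by name, of which 2 (Npc1a and Npc1b) belong to the Npc1 branch and 8 (Npc2a to Npc2h) to the Npc2 branch. A gene was counted as measured where the platform annotation gave a probe set that gene's symbol and no other. In this way 9 of the 10 genes were found, with 1 probe set each, among 18769 probe sets tested and 11983 genes with a probe set of their own. Npc1b was not analysed here. RNA was hybridised to Affymetrix Drosophila Genome 2.0 arrays, with 3 genotypes and a duplicate of each (2 arrays a genotype). The dTip60E431Q larvae carried UAS-dTip60 with the E431Q substitution in the catalytic HAT domain (line B, inserted on the third chromosome), and the dTip60WT larvae carried an extra UAS copy of wild-type dTip60 (line B, inserted on the second chromosome). The control larvae came from w1118 mothers and carried no dTip60 transgene. All 3 genotypes had the ubiquitous driver 337-GAL4 from the father and kept the endogenous Tip60 gene. A separate pool of 35 entire larvae was used per array, taken after 3 days at 25°C, and 1 insertion line stood for each transgene.

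Insects cannot make sterols and take them from food. Npc proteins carry sterol out of the late endosome and lysosome: the small soluble Npc2 protein binds sterol released in the lumen and hands it to Npc1, a large membrane protein with a sterol-sensing domain. In mammals loss of either protein causes Niemann-Pick type C disease, with sterol stored in lysosomes. Flies have a pair of Npc1 genes, of which Npc1a acts in most tissues and is needed for the sterol supply of ecdysone synthesis, and Npc1b acts in sterol uptake by the midgut. The Npc2 branch is expanded in flies. Npc2a and Npc2b act in sterol traffic and steroid hormone supply in a partly redundant way. Npc2a, Npc2e and Npc2h have also been described as binding bacterial cell wall components. Separate roles of the other Npc2 paralogs are less well known.

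The paralogs moved in opposite directions with dTip60E431Q and stayed near the control with dTip60WT. Npc2h and Npc2g fell, Npc2c and Npc2b rose, Npc2a and Npc2f were lower by less than 2-fold, and Npc1a, Npc2d and Npc2e did not pass the test. A call needed a limma p under 0.05 after Benjamini-Hochberg adjustment across the 18769 probe sets, together with a change of 2-fold or more. On this rule 4 of the 9 measured members were called with dTip60E431Q against the control, 2 higher and 2 lower. Over all probe sets 14.4% were called in this comparison, 8.39% higher and 5.99% lower. With the methods' t-test on linear values, at their unadjusted threshold with the fold limit, Npc2h and Npc2g passed, Npc2c and Npc2b did not, and 0 members passed after Benjamini-Hochberg. The adjusted p alone was below 0.05 for 6 of the 9 (23.6% of all probe sets) and the unadjusted p for 7 (37.3% of all probe sets). The dTip60E431Q arrays lay above both control arrays for 4 members and below them for 4, where 33.8% of all probe sets were higher and 30.3% lower without overlap. The counts are small and are given as a description. Values are the authors' normalized linear intensities, errors are the SD of 2 arrays, and changes are on the log2 scale with the standard error (SE) of limma. In whole larvae, fewer cells that use a gene and less of its RNA per cell cannot be told apart. The paper used staged larvae, taken before the lethality of dTip60E431Q line B, which fell mostly in the late second instar. Whether the genotypes had reached the same developmental stage at 3 days was not tested here.

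**Figure D1:**
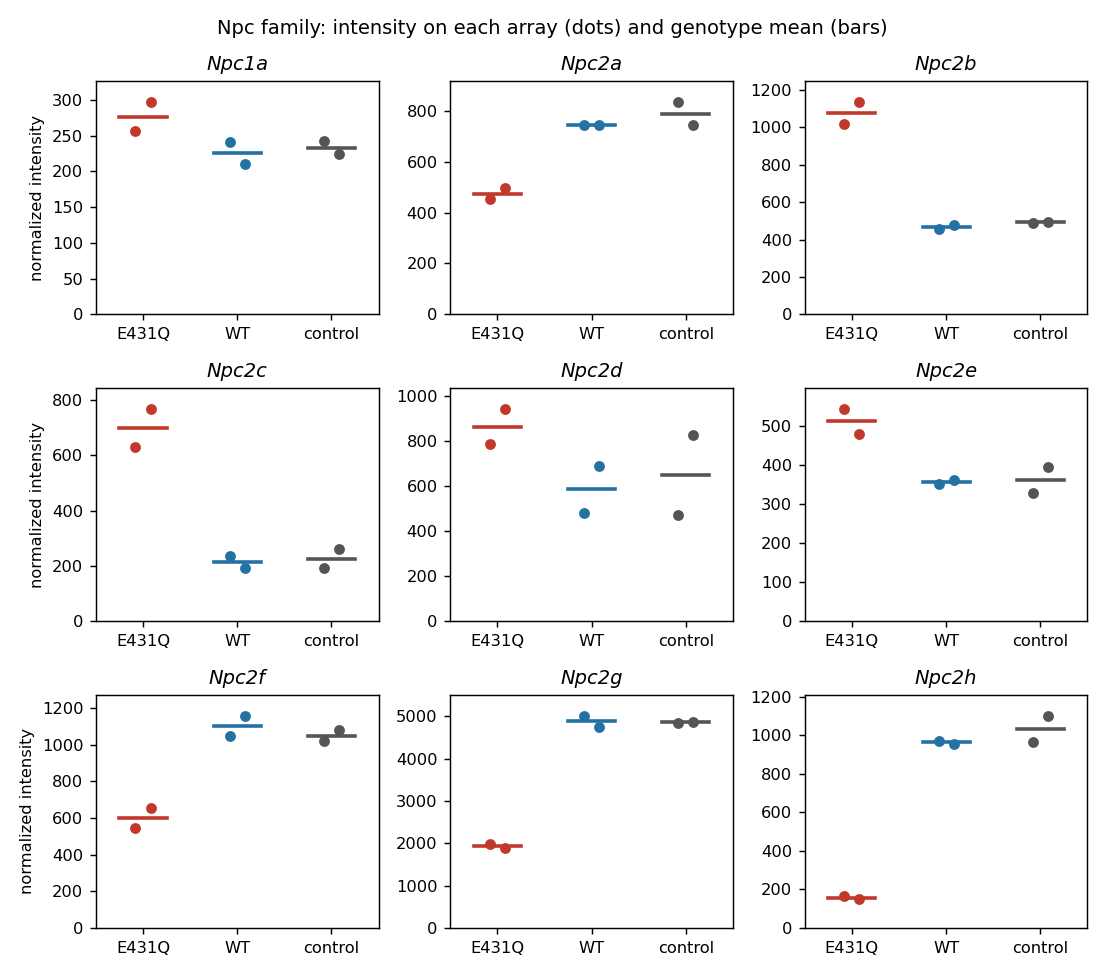
Normalized intensity (linear scale, y axis from 0) of the 9 measured Npc genes on each of the 6 arrays, with dTip60E431Q, dTip60WT and control from left to right; dots are arrays and bars the genotype means. Npc2h lies at 148 and 166 on the dTip60E431Q arrays and between 958 and 1102 on the other arrays, while the dTip60WT and control dots of each gene lie close together except for Npc2d.

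Npc2h had the largest change of the family. Its intensities (probe set 1624409_a_at) were 166 and 148 on the dTip60E431Q arrays, 971 and 958 on the dTip60WT arrays, and 968 and 1102 on the control arrays. The dTip60E431Q arrays stood apart from all 4 others, which lay close to each other. Npc2h averaged 157 ± 12.2 with dTip60E431Q and 1035 ± 94.3 in the control, a 6.59-fold fall (log2 change -2.72, SE 0.14, adjusted p = 0.00550). Whichever of the 4 dTip60E431Q and control arrays was left out, the change of Npc2h stayed between -2.81 and -2.63.

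Npc2g, the gene next to Npc2h, fell as well but less. It had intensities of 1982 and 1892 with dTip60E431Q, 5008 and 4743 with dTip60WT, and 4848 and 4873 in the control (probe set 1627595_at). Again the dTip60E431Q arrays lay below all others, without overlap. The fall was 2.51-fold (log2 change -1.33, SE 0.11, adjusted p = 0.00712). Without control replicate 1 the change was -1.33 and the call was just lost (adjusted p = 0.0501).

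Npc2c rose more than any other member. Its intensities were 630 and 768 with dTip60E431Q, 234 and 191 with dTip60WT, and 192 and 261 in the control (probe set 1640045_at). Each dTip60E431Q array was above each array of the other genotypes. Npc2c averaged 699 ± 97.5 with dTip60E431Q and 226 ± 48.7 in the control, a 3.11-fold rise (log2 change 1.64, SE 0.23, adjusted p = 0.0148). The call was lost without dTip60E431Q replicate 1 (1.78, adjusted p = 0.0570), without dTip60E431Q replicate 2 (1.49, adjusted p = 0.0710) and without control replicate 1 (1.42, adjusted p = 0.0661). Npc2c overlaps the antisense RNA gene asRNA:CR45205 in the RefSeq gene table, and the position of the probes was not used here.

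Npc2b, which shares its role in sterol supply with Npc2a, also rose. It had 1019 and 1134 with dTip60E431Q, 455 and 478 with dTip60WT, and 489 and 495 in the control (probe set 1641065_s_at). The arrays of the control differed little for this gene, and those of dTip60E431Q lay well above them. The rise was 2.19-fold (log2 change 1.13, SE 0.12, adjusted p = 0.00941). It lay close to the 2-fold limit, and with every array scaled to the same median it was 0.90, below that limit (adjusted p = 0.0134). Its adjusted p was 0.0589 without control replicate 1 (change 1.12) and 0.0542 without control replicate 2 (change 1.14). The suffix of this probe set marks probes that can match transcripts of more than 1 gene, though the annotation names Npc2b alone.

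Npc2a and Npc2f passed the adjusted p but not the fold limit. Npc2a, the best studied of the fly Npc2 genes, had intensities of 453 and 495 with dTip60E431Q, 745 and 743 with dTip60WT, and 834 and 744 in the control (probe set 1625334_at). Both dTip60E431Q arrays were lower than the other arrays, and the log2 change was -0.73 (SE 0.13, adjusted p = 0.0238), a 1.66-fold difference. Npc2f had 543 and 654 with dTip60E431Q, 1049 and 1157 with dTip60WT, and 1019 and 1080 in the control (probe set 1634158_at). Its groups did not overlap either, with a log2 change of -0.81 (SE 0.15, adjusted p = 0.0269). For both genes the adjusted p rose above 0.05 when any of the 4 arrays was left out (0.0712 to 0.109 for Npc2a, 0.0575 to 0.115 for Npc2f) or when only those 4 arrays were fitted (0.0609 for Npc2a, 0.0613 for Npc2f). With every array scaled to the same median Npc2f passed the fold limit and was called (change -1.05, adjusted p = 0.0142).

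Npc1a, Npc2d and Npc2e did not pass. Npc1a, the membrane partner of the Npc2 proteins in most tissues, had 256 and 297 with dTip60E431Q, 241 and 210.2 with dTip60WT, and 242 and 224 in the control (probe set 1640496_at). Its log2 change was 0.24 with a 95% interval from -0.16 to 0.65 (adjusted p = 0.317), so a rise or fall of 2-fold lies outside the interval. With every array scaled to the same median the change of Npc1a was 0.01 (adjusted p = 0.966). Npc2e had 543 and 480 with dTip60E431Q, 351 and 361 with dTip60WT, and 329 and 395 in the control (probe set 1623732_at). The dTip60E431Q arrays were above the others without overlap, but the change of 0.50 (interval 0.09 to 0.91) had an adjusted p of 0.0856. Its adjusted p was below 0.05 with trend and robust moderation (0.0122), a pseudocount of 16 (0.0434) or dim probe sets left out (0.0277), always under 2-fold, and the change was 0.27 with every array scaled to the same median (adjusted p = 0.298). Npc2e overlaps asRNA:CR44192 in the RefSeq gene table. Npc2d varied between pools of the same genotype, with 785 and 941 with dTip60E431Q, 480 and 689 with dTip60WT, and 473 and 825 in the control (probe set 1633050_at). It was the only member whose dTip60E431Q and control arrays overlapped. Its change was 0.46 (interval -0.48 to 1.40, adjusted p = 0.410), an interval that holds changes of 2-fold upwards. Leaving out control replicate 1 gave 0.06 and leaving out control replicate 2 gave 0.86, and neither passed. The larger of a pair of duplicate intensities was at most 1.75 times the smaller for Npc2d and at most 1.36 times for the other members.

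**Figure D2:**
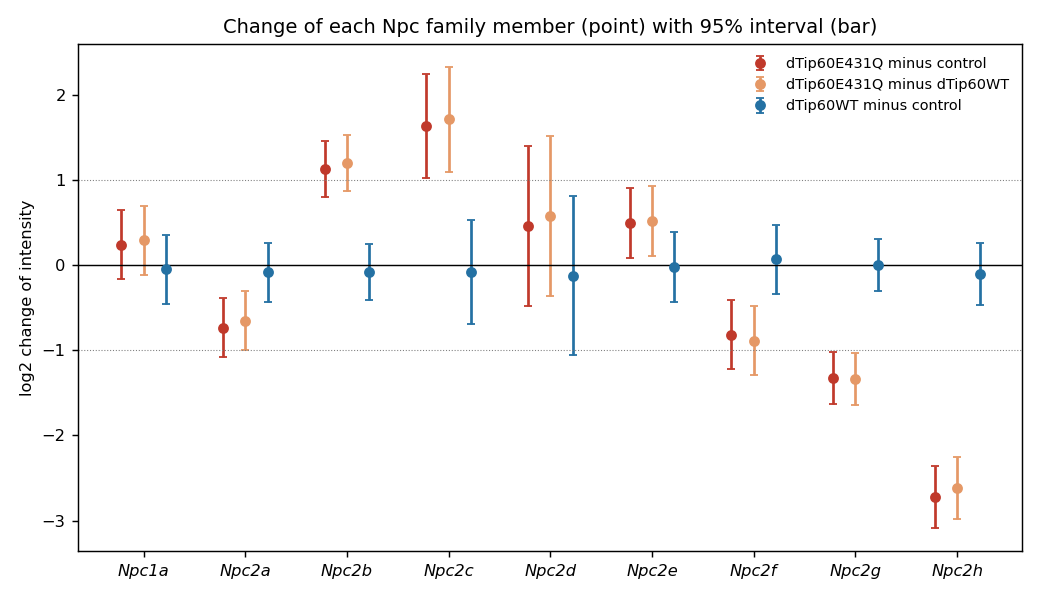
Log2 change of each measured Npc gene (points) with its 95% interval from limma (bars) for dTip60E431Q minus control, dTip60E431Q minus dTip60WT and dTip60WT minus control; dotted lines mark a 2-fold change. The first pair of comparisons share the dTip60E431Q arrays and run from -2.72 (Npc2h) to 1.72 (Npc2c), while the dTip60WT changes lie between -0.12 and 0.07.

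With dTip60WT, which raises wild-type dTip60 in place of the HAT mutant, every measured member stayed close to the control. The changes lay between -0.12 (Npc2d) and 0.07 (Npc2f), with a median absolute change of 0.08 over the 9 members and 0.17 over all probe sets. In limma 0 of the 9 were called, 0 had an unadjusted p below 0.05 (the smallest p was 0.506, of Npc2h), and 0 passed the methods' own test on linear values. The background in this comparison was 0.00533%, which is the probe set of Tip60 alone, and 5.6% of all probe sets had an unadjusted p below 0.05. The 95% intervals of 8 members lay within -0.69 and 0.54, which leaves out changes of 2-fold, and that of Npc2d ran from -1.06 to 0.82. Npc2b was the 1 member whose dTip60WT and control arrays did not overlap, at 455 and 478 with dTip60WT and 489 and 495 in the control, where 16.3% of all probe sets were lower without overlap.

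Compared directly with dTip60WT, the dTip60E431Q larvae differed in the 4 genes called against the control. Npc2h was lower by a log2 change of -2.62 (SE 0.14, adjusted p = 0.00506) and Npc2g by -1.33 (SE 0.11, adjusted p = 0.00623), whereas Npc2c was higher by 1.72 (SE 0.23, adjusted p = 0.0126) and Npc2b by 1.21 (SE 0.12, adjusted p = 0.00768). Over all probe sets 14.8% were called, 8.78% higher and 6.05% lower, and 24% had an adjusted p below 0.05. Npc2a (-0.65, adjusted p = 0.0308) and Npc2f (-0.89, adjusted p = 0.0216) again passed the adjusted p alone, and Npc2e (0.52, adjusted p = 0.0794), Npc2d (0.58, adjusted p = 0.309) and Npc1a (0.29, adjusted p = 0.241) did not. The arrays of the 2 genotypes did not overlap for any member, with 5 higher and 4 lower, where 32.7% of all probe sets were higher and 30.9% lower without overlap. The unadjusted p was below 0.05 for 7 members (37.6% of all probe sets). The dTip60E431Q arrays are the same in both comparisons, so the values are given side by side and not as a second observation. The count of 4 became 1 without dTip60WT replicate 1 and 2 without dTip60WT replicate 2, with Npc2h called in each case. Without dTip60WT replicate 1 the calls of Npc2b (adjusted p = 0.0551), Npc2c (0.0591) and Npc2g (0.0508) were lost, and without dTip60WT replicate 2 those of Npc2b (0.0524) and Npc2c (0.0684). Npc2c also lost its call without dTip60E431Q replicate 1 (0.0509) or replicate 2 (0.0636). With any of the 4 arrays of this comparison left out, neither Npc2a (changes from -0.72 to -0.59) nor Npc2f (-1.02 to -0.75) passed the adjusted p. With every array scaled to the same median Npc2b was below 2-fold (0.99, adjusted p = 0.0106) and Npc2f was called (-1.10, adjusted p = 0.0123).

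Most of the Npc2 genes lie on chromosome arm 3R, at several separate places. By the RefSeq gene table (assembly Release 6 plus ISO1 MT), 7 of the measured members are on 3R and 2, Npc1a and Npc2a, on 2L. The dTip60E431Q transgene is inserted on the third chromosome, at a site not used here. Npc2e, Npc2d and Npc2c follow one another with no other gene between them. Of this row Npc2c, at one end, was called and Npc2e, at the other end, was not: Npc2c had a change of 1.64, against 0.46 for Npc2d and 0.50 for Npc2e. Npc2g and Npc2h are adjacent and both fell. Npc2b, the other member that rose, is adjacent to no member.

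The genes on either side of the members were mixed. Before Npc2g lies CG15543, at 30.2 and 31.5 with dTip60E431Q and 34.1 and 30.8 in the control (change -0.07, adjusted p = 0.778), and after Npc2h, with 1 unmeasured gene between, lies the transcription factor gene zfh1. It had 153 and 133 with dTip60E431Q and 76.7 and 64.1 in the control, a rise of 1.03 (adjusted p = 0.0191) opposite in sign to Npc2h. The nearest measured genes around the Npc2e, Npc2d and Npc2c row were Fancl, with 1 gene between, at 0.72 (adjusted p = 0.101), and CG33631, with 3 genes between, at -0.76 (adjusted p = 0.0622), and neither passed. Beside Npc2b, the neuropeptide gene CCHa1 was higher by far, at 560 and 485 with dTip60E431Q and 28.5 and 17.9 in the control (change 4.53, adjusted p = 0.00566). The growth regulator foxo on the other side of Npc2b was at 226 and 239 with dTip60E431Q and at 252 and 238 in the control (-0.08, adjusted p = 0.700). Kal1, after Npc2f, fell by 1.46 on the log2 scale (adjusted p = 0.00689), and Got2, an aminotransferase gene before Npc2a, was lower by less than 2-fold (-0.96, adjusted p = 0.0109). The other neighbours did not pass: Sec10 before Npc2f (-0.04, adjusted p = 0.885), ath and Prosalpha6 beside Npc1a (0.12, adjusted p = 0.557, and -0.41, adjusted p = 0.0728), and Obp22a after Npc2a, which was dim at 11.2 and 16.7 with dTip60E431Q and 1.12 and 6.51 in the control (2.34, adjusted p = 0.197).

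**Figure D3:**
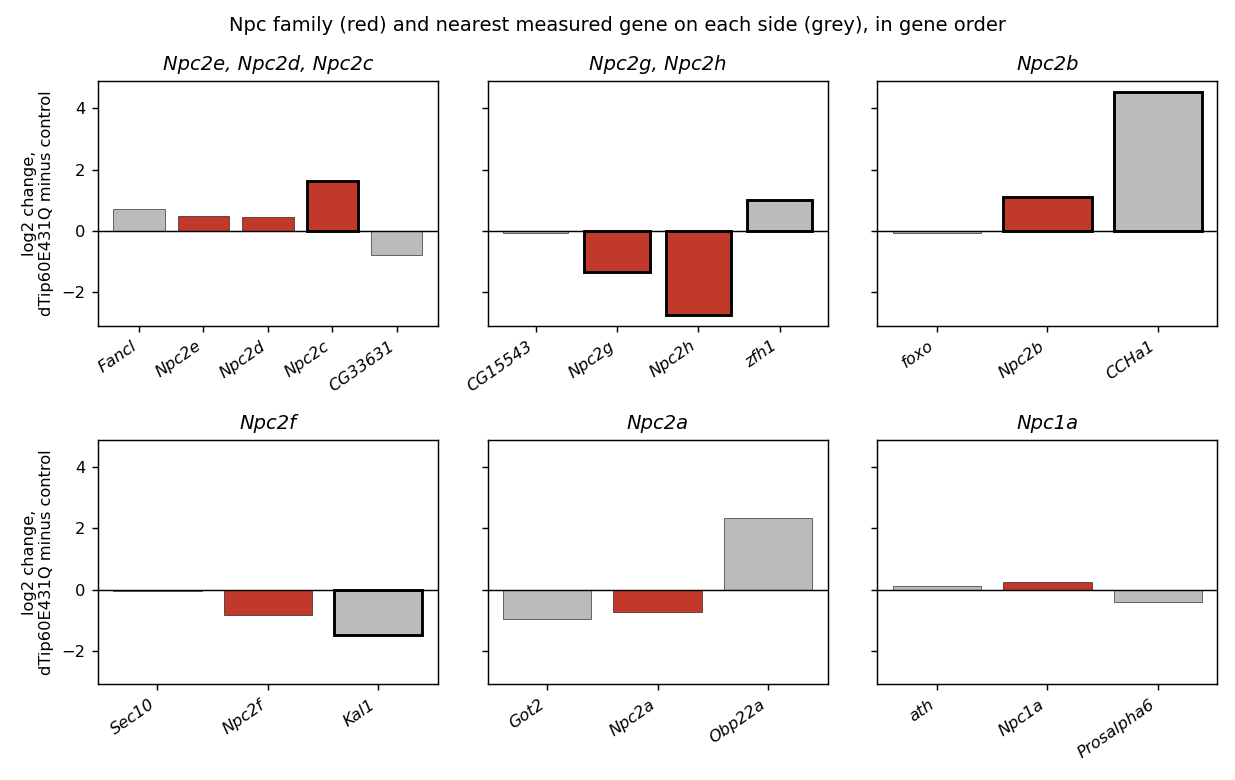
Log2 change in dTip60E431Q minus control (y axis) of the measured Npc genes (red) and of the nearest measured gene on each side (grey), in the order of the RefSeq gene table; a thick outline marks a call. Npc2g and Npc2h are both below 0 between CG15543 near 0 and zfh1 above 0, and Npc2c stands above its neighbours Npc2d and Npc2e.

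Paralogs were also set against each other within each array, as the log2 ratio of their probe sets, since a factor that scales a whole array cancels in such a ratio. Only the change of a ratio between genotypes can be read, as probe sets differ in their response. The ratio of Npc2g over Npc2h was 3.58 and 3.67 on the dTip60E431Q arrays, 2.37 and 2.31 on the dTip60WT arrays, and 2.32 and 2.15 on the control arrays. The adjacent pair thus did not fall equally: the ratio was 1.39 higher with dTip60E431Q than in the control, which is 2.63-fold. The ratio of Npc2a over Npc2b, the pair with redundant roles, was -1.17 and -1.20 with dTip60E431Q, 0.71 and 0.64 with dTip60WT, and 0.77 and 0.59 in the control. It changed by -1.86, a 3.64-fold shift towards Npc2b, with no overlap between dTip60E431Q and the other arrays.

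Within the row of 3 genes, the ratio of Npc2c over Npc2d was -0.32 and -0.29 with dTip60E431Q and -1.30 and -1.66 in the control, and that of Npc2c over Npc2e was 0.21 and 0.68 with dTip60E431Q and -0.78 and -0.60 in the control. Both ratios were higher with dTip60E431Q without overlap, by 1.18 and 1.13. Npc2d over Npc2e, in contrast, was 0.53 and 0.97 with dTip60E431Q and 0.52 and 1.06 in the control, and these values overlapped. Npc2a over Npc2f was -0.26 and -0.40 with dTip60E431Q, -0.49 and -0.64 with dTip60WT, and -0.29 and -0.54 in the control, so that dTip60E431Q overlapped with the control but not with dTip60WT. The widest shift was that of Npc2c over Npc2h, at 1.93 and 2.37 with dTip60E431Q and -2.34 and -2.08 in the control, a change of 4.36. Of the 36 pairs, 32 did not overlap between dTip60E431Q and control arrays, and 4 did not overlap between dTip60WT and control arrays. Of single probe sets, 33.8% were higher and 30.3% lower without overlap between dTip60E431Q and control arrays. Between dTip60WT and control arrays 16.3% were higher and 16.3% lower. The share over pairs of other genes was not computed for either comparison, and shares of single probe sets are not the same measure. The pairs share genes, and with 2 arrays a genotype an exact two-sided permutation test cannot give a p below 0.333, so these counts are a description.

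**Figure D4:**
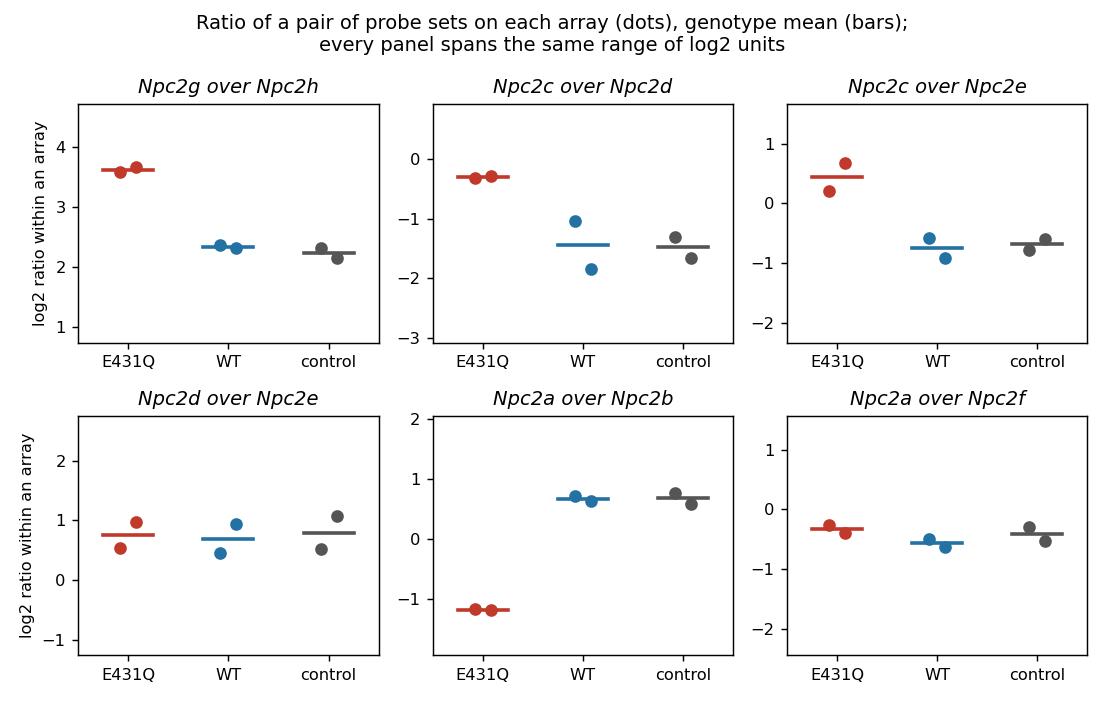
Log2 ratio of a pair of Npc probe sets within each array (dots) with the genotype mean (bars), for dTip60E431Q, dTip60WT and control from left to right; each panel spans the same range of log2 units. Npc2a over Npc2b lies near -1.2 with dTip60E431Q and above 0.5 on the other arrays. Npc2d over Npc2e overlaps between all genotypes, and Npc2a over Npc2f overlaps between dTip60E431Q and control but not between dTip60E431Q and dTip60WT.

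The genes nearest in pattern to Npc2h and Npc2c, the members with the largest changes, were searched among 13646 other single-symbol probe sets by Euclidean distance of centred log2 values over the 6 arrays. Nearest to Npc2h were CG11892 (distance 0.31), kumpel (0.32) and TRAM (0.33), the last a gene of the endoplasmic reticulum translocon. CG11892 had 247 and 236 with dTip60E431Q, 1299 and 1530 with dTip60WT, and 1243 and 1466 in the control (change -2.48), and TRAM had 777 and 901 with dTip60E431Q, 5981 and 5525 with dTip60WT, and 5593 and 5767 in the control (-2.76). Nearest to Npc2c were CG32982 (0.15), IA-2 (0.16), a gene of dense-core vesicles, and CG12994 (0.16). IA-2 had 1130 and 1259 with dTip60E431Q, 412 and 301 with dTip60WT, and 333 and 443 in the control (change 1.63). All these genes share the contrast that singles out Npc2h or Npc2c, and 6 arrays of 3 genotypes do not tell finer patterns apart.

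Genes that bring sterol to the cell or regulate its uptake were mixed. The lists of related genes were counted with 1 probe set for each gene, where 9.93% of 11983 genes were called higher and 6.93% lower with dTip60E431Q against the control, with a median change of 0.03. Of 6 measured genes of lipophorins and their receptors 0 were called higher and 1 lower, with a median of -0.26. The called gene was Mtp, which loads lipid on lipophorin, at 554 and 586 with dTip60E431Q and 1276 and 1231 in the control (change -1.14, adjusted p = 0.0127). The lipophorin receptor genes LpR2 (0.99, adjusted p = 0.0211) and LpR1 (0.76, adjusted p = 0.0375) were higher by less than 2-fold. Of 10 sterol sensing and lipid regulators 0 were called, with a median of 0.14. Hr96, a nuclear receptor that binds cholesterol and controls sterol genes in flies, came close to 2-fold, at 525 and 386 with dTip60E431Q and 234 and 229 in the control (0.96, adjusted p = 0.0306), usp, a partner of the ecdysone receptor, had a change of -0.89 (adjusted p = 0.0253), and disp, which like Npc1 has a sterol-sensing domain, of 0.53 (adjusted p = 0.0477).

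Lipases of gut and fat body had 2 genes called higher and 2 lower of 13, with a median of -0.04. The mag gene, an intestinal lipase that also acts on sterol esters, was called lower: it had 2165 and 2142 with dTip60E431Q and 6485 and 6473 in the control (-1.59, adjusted p = 0.00617). Lip3, a lipase gene known for its response to starvation, had 362 and 537 with dTip60E431Q and 28.5 and 26.1 in the control (4.01, adjusted p = 0.00550), and CG31872 was dim throughout, with 4.53 and 5.45 with dTip60E431Q and 10.4 and 9.67 in the control. Intracellular sterol and lipid transfer genes had 4 called higher and 3 lower of 19, with a median of 0.32. Called higher were Snmp2 (2.54, adjusted p = 0.00883), santa-maria (1.32, adjusted p = 0.0371), emp (1.28, adjusted p = 0.0102) and cert (1.02, adjusted p = 0.0103). Of those called lower, ninaD, a scavenger receptor gene for carotenoid uptake in the gut, fell by 3.41 on the log2 scale (149 and 150.3 with dTip60E431Q, 1391 and 1816 in the control, adjusted p = 0.00560), and fabp, a fatty acid binding protein gene, fell by 1.52 (adjusted p = 0.00654). Scp2, which also fell (-1.57, adjusted p = 0.00745), encodes a sarcoplasmic calcium-binding protein and stands in this list by its name only.

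Late endosome and lysosome genes, the compartment of the Npc proteins, had 4 called higher and 2 lower of 20, with a median of 0.15. The protease gene CtsF was at 1807 and 2266 with dTip60E431Q and at 600.1 and 610 in the control (1.74, adjusted p = 0.00749). CtsL1 (1.15, adjusted p = 0.00945), Hexo2 (1.23, adjusted p = 0.0255) and Mitf (1.16, adjusted p = 0.0390) were also called higher. The lysosomal hydrolase gene Naglu (-1.36, adjusted p = 0.00826) and the protease gene CtsK1 (-1.17, adjusted p = 0.00841) fell. Of 12 genes of ecdysteroid synthesis, a pathway that starts from sterol, 0 were called higher and 1 lower, with a median of -0.01. The lower gene was sro, at 28.9 and 23.3 with dTip60E431Q and 121 and 82.6 in the control (-1.95, adjusted p = 0.0114), while spok (0.88, adjusted p = 0.106) and shd (0.51, adjusted p = 0.0980) did not pass. Several genes of this list were dim, among them nvd, dib and ouib. GstE14 had 5.02 and 9.77 with dTip60E431Q and 7.45 and 5.17 in the control, and spo had 1.13 and 2.28 against 1.0 and 1.49. The sad gene had 1.26 and 12.7 with dTip60E431Q and 40.5 and 26.9 in the control (-3.05, SE 1.14, adjusted p = 0.134). The median therefore says little about the dim genes. Of 23 measured genes of the antimicrobial and peptidoglycan response, 6 were called higher and 1 lower, with a median of 0.69. Those called higher included Rel (2.42), PGRP-LF (3.34), PGRP-LB (1.06) and Drs (3.46, SE 0.78, adjusted p = 0.0414). Drs differed widely between the control duplicates, at 886 and 184. It had 4491 and 4423 with dTip60E431Q and 57.5 and 46.7 with dTip60WT. The gene called lower was PGRP-SC2 (-1.26, adjusted p = 0.0117). DptB (0.75, adjusted p = 0.172), Mtk (0.86, adjusted p = 0.264) and CecB (-0.67, adjusted p = 0.0508) did not pass. Neither did AttD (adjusted p = 0.0538) or Def (adjusted p = 0.438). Npc2a and Npc2h, described as binders of bacterial components, had changes of -0.73 and -2.72 and Npc2e of 0.50.

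**Figure D5:**
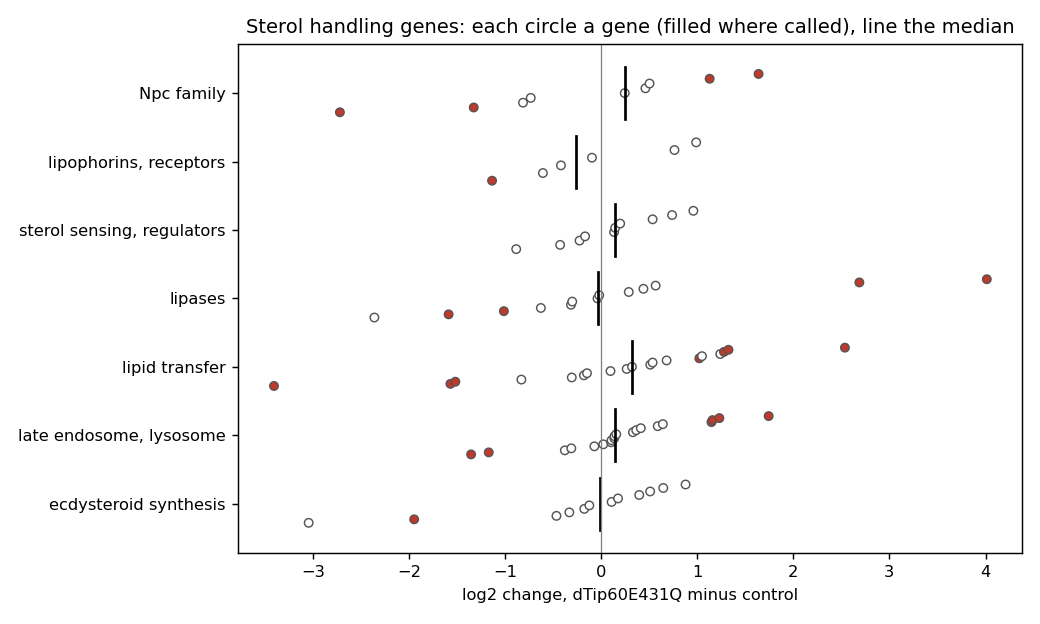
Log2 change in dTip60E431Q minus control (x axis) for the measured genes of the Npc family and of 6 lists of sterol and lipid handling; each circle is a gene, filled where called, and vertical lines are medians. The medians lie between -0.26 and 0.32 and each list but the sterol sensing and lipid regulators holds called genes.

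Tissue marker lists differed in how they behaved with dTip60E431Q. Of 4 measured fat body genes 2 were called lower, Lsp2 (135 ± 6.77 with dTip60E431Q and 14331 ± 1152 in the control) and Fbp2 (25.3 ± 0.50 with dTip60E431Q and 7519 ± 2914 in the control). The gene apolpp did not pass, at 11087 and 9539 with dTip60E431Q and 13385 and 14140 in the control (-0.42, adjusted p = 0.0999). Fbp1 differed widely between duplicates, at 5.01 and 1015 with dTip60WT and 1329 and 7.09 in the control. It had 3.32 and 6.42 with dTip60E431Q and did not pass (-4.39, adjusted p = 0.446). The summed intensity of the 4 was 9700.2 to 11255 with dTip60E431Q and 33122 to 39439 in the control. With dTip60E431Q this sum was nearly all apolpp, and the fall of the sum lay mostly in Lsp2 and Fbp2. Sums here and below add probe sets that differ in response, so they do not measure the amount of a tissue. Of 8 muscle genes 3 were called lower, among them Act87E (-1.70) and Mlp84B (-1.03), while Mlp60A (-0.91) stayed under 2-fold, with sums of 33788 to 34647 with dTip60E431Q and 60379 to 62565 in the control. Midgut genes had 5 called higher, among them alphaTry (2.42), Mal-A6 (1.53) and Mal-A1 (1.33), and 2 called lower, Mal-A5 (-1.93) and thetaTry (-1.59), of 35. The summed intensity of the 35 overlapped with the control, at 136449 to 140370 with dTip60E431Q and 127707 to 142756 in the control. Of 11 neuron genes 2 were called higher, Gad1 (1.32) and ChAT (1.09), while Rdl (0.62) stayed under 2-fold. The general neuron markers elav (0.01, adjusted p = 0.956) and brp (-0.15, adjusted p = 0.626) did not pass. Neither did nSyb (-1.54, adjusted p = 0.307), which was dim at 1.0 and 3.77 with dTip60E431Q and 8.82 and 3.59 in the control. The sums of the neuron genes were 2153 to 2232 with dTip60E431Q and 1584 to 1605 in the control. Most of this difference lay in Gad1 and in Csp, the brightest gene of the list. Csp had 953 and 1006 with dTip60E431Q and 710 and 735 in the control and did not pass (0.44, adjusted p = 0.0640). Hemocyte genes had 0 called of 12, with PPO1 at -0.96, PPO2 at -0.78 and atilla at 0.58. Hml (-0.15, adjusted p = 0.746), NimC1 (-0.03, 0.933), eater (-0.22, 0.436) and Pxn (-0.05, 0.873) changed little. The part of these shifts in the changes of the Npc genes was not tested.

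Tip60 transcript was high on the arrays of both transgenes, though its single probe set does not tell the mutant from the wild-type form. It had intensities of 5172 and 5464 with dTip60E431Q, 3045 and 2755 with dTip60WT, and 30.8 and 29.2 in the control, and was 1.84-fold higher with dTip60E431Q than with dTip60WT (log2 change 0.88, adjusted p = 0.0142). Median intensities of the arrays were 51.5 and 51.9 with dTip60E431Q, 43.8 and 45.2 with dTip60WT, and 44.4 and 43.6 in the control. All values of the measured Npc genes, from 148 to 5008, lay above these medians. Scaling the arrays to the same median lowered the changes of dTip60E431Q against the control by 0.23 on the log2 scale.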

How the data were processed

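RNA of 6 pools of 35 larvae was hybridised to 6 arrays. Per the methods, the authors used GCOS for quantitation and dChip for normalization and model-based expression indexes, and the deposited intensity values, linear and from 0.69 to 18115, were taken to be these indexes. The probe model, the baseline array and the versions are not given in the sources used here, and no counts or depths exist, so that precision is set by the number of arrays. A total of 183 Affymetrix controls were left out, and log2 intensities of 18769 probe sets, with no pseudocount or filter, were fitted in limma 3.58.1 (R 4.3.3) with 1 mean per genotype over all 6 arrays (3 residual degrees of freedom) and eBayes. P-values were adjusted by Benjamini-Hochberg, and p below 0.05 with a fold of at least 2 was called. The fit was tested on simulated data. Symbols come from the platform annotation, and other names and gene order from the RefSeq gene table. For each gene list the probe set with the highest mean stood for its gene, and up to 3 genes with the smallest p were named. In some lists further genes were named, among them other called genes and genes that went the other way or did not pass. Also named were the family, its nearest measured neighbours and Tip60. The 3 probe sets nearest in pattern to each of the 2 members with the largest called change were named as well. Members and lists were chosen with earlier results of these data known. Alternatives were a replicate block, only the 4 arrays compared, trend and robust moderation, median scaling, quantile normalization, a pseudocount of 16, a floor at the 20th percentile, a filter at the 40th percentile, each array left out, no fold limit, unadjusted p, and the methods' t-test. The paper's statements that pools were collected separately are the basis for treating arrays as replicates. Protein sequences were not used here. Plots were made with matplotlib 3.10.9.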

Additional observations from a re-analysis of the deposited data

How the results depend on the processing

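The counts of called members (4 for dTip60E431Q against the control, 0 for dTip60WT against the control, 4 for dTip60E431Q against dTip60WT) were within 1.5 times of these values under every alternative but those named here. With an array left out, the counts were 1 to 3 against the control, 0 to 0 for dTip60WT and 1 to 3 between the transgenes. The methods' t-test on linear values gave 2, 0 and 2 at their threshold and 0, 0 and 0 after Benjamini-Hochberg. The labels give each genotype replicates 1 and 2, but deviations of same-numbered arrays did not go together (r across probe sets -0.01 for each pair), and with the replicate block the counts were 4, 0 and 4. Without a fold limit they were 6, 0 and 6. For single genes, no direction was reversed in either comparison with dTip60E431Q. Against the control 100 of 108 alternative values kept their side of the call, 7 lost and 1 gained it, and between the transgenes 99, 8 and 1. With dTip60WT against the control, 12 of 108 log2 changes, none of them called, changed sign. Median scaling gave -0.013 for Npc2g, and quantile normalization gave -0.0035 for Npc2g and 0.0055 for Npc2e. With an array left out the change ran from -0.0353 to 0.043 for Npc2g, from -0.149 to 0.116 for Npc2e, from -0.522 to 0.281 for Npc2d, from -0.300 to 0.142 for Npc2c, and from -0.146 to 0.0488 for Npc1a. The cause was not tested. An array left out leaves 2 residual degrees of freedom.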
